A study of Homo sapiens with 12 samples.

Results

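BLU9931 given alone was compared with control in H520, an established cell line that comes from a human squamous cell carcinoma of the lung (LUSC). All libraries labelled control (n = 3) or BLU9931 (n = 3) were taken, which is 6 of the 12 poly(A) RNA libraries of the series, and the comparison covers the 20612 of 58174 listed genes that passed a filter on low counts. BLU9931 was given at 1 µM for 72 h. The other 6 libraries are cells given palbociclib at 1 µM (a CDK4 and CDK6 inhibitor, n = 3) or both drugs at these doses (n = 3), also for 72 h. What was given to the controls is not in the labels. Nor do they tell whether replicates are separate cultures, so p-values measure the spread between these libraries, which may be technical. All libraries are of 1 cell line, and no library reports on FGFR4 kinase activity.

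BLU9931 is a covalent inhibitor made for FGFR4, which it binds at a cysteine that the other FGF receptors lack. FGFR4 is the receptor of the endocrine ligand FGF19 and uses the co-receptor beta-klotho (KLB). Active FGF receptors signal through the ERK kinases, which switch on genes of the DUSP, SPRY and SPRED families that dampen the same pathway, and ETS factors such as ETV4 and ETV5. H520 is known as a line with extra copies of FGFR1.

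The control libraries held 28527179 to 35786607 counts and the BLU9931 libraries 23632602 to 29500438. Control 1 stood apart from the other 5 libraries. On the first principal component, which held 52.4% of the variance, it lay at 54.5 and the others between -20.1 and 3.33. Its deviation from the mean of the other controls fell with the GC content of the transcript (Spearman rho -0.776 across 15896 genes). The genes are not independent replicates. The corresponding rho was 0.607 and 0.661 in control 2 and 3, whose reference includes control 1. It was between -0.133 and 0.0654 in the BLU9931 libraries, each set against the others of its group. Against the mean of the 6 libraries, the median of control 1 went from 0.434 in the lowest of 20 GC bins to -0.765 in the highest. The medians of control 2 and 3 went from 0.005 and -0.027 to 0.009 and 0.088. The log2 difference between BLU9931 and control followed GC content too, with a rho of 0.628, of 0.343 without control 1 and of 0.0067 after an adjustment of each library for GC. Results were therefore also computed without control 1.

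**Figure D1:**
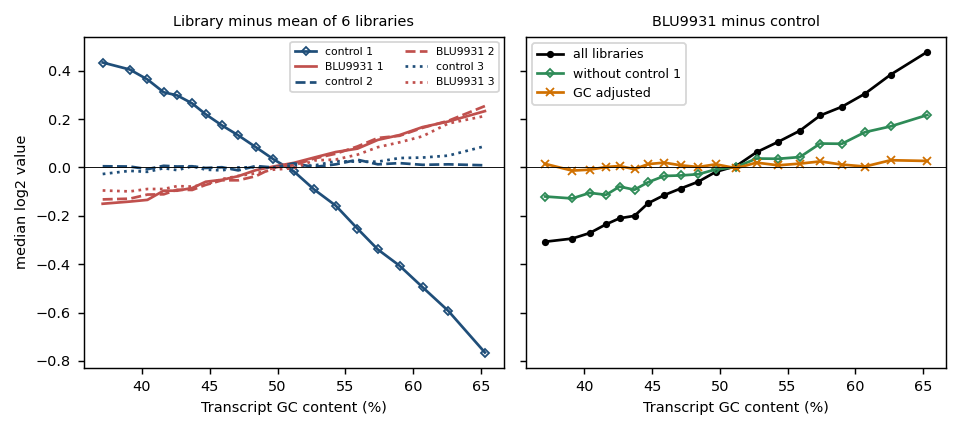
Median log2 values of genes in 20 bins of transcript GC content (x axis, percent). Left, each of the 6 libraries minus the mean of the 6; control 1 runs from 0.43 in the lowest bin to -0.77 in the highest, against -0.15 to 0.25 in the other libraries. Right, BLU9931 minus control with all libraries (-0.31 to 0.48), without control 1 (-0.13 to 0.22) and after the GC adjustment (-0.01 to 0.03).

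The label LUSC was checked against marker genes. SOX2, a squamous lineage factor, was at 476.0 to 576.7 CPM (counts scaled to library size by TMM factors) in the 6 libraries, and the squamous gene DSC3 at 9.3 to 11.9 CPM. The defining basal and squamous markers TP63, KRT5, KRT14, KRT17 and DSG3 were each at or under 0.242 CPM in every library, so these cells lacked much of the squamous keratin programme. The epithelial markers EPCAM, KRT8 and CDH1 were present, with at least 15.5 CPM of each, and so were the neuroendocrine genes INSM1 (21.7 to 36.7 CPM) and NCAM1 (39.8 to 71.1 CPM). The leukocyte markers summed to 3.09 to 4.5 CPM in control and 3.36 to 4.63 CPM in BLU9931 libraries, the endothelial markers to 3.09 to 4.59 and 3.65 to 4.14 CPM. PTPRC, PECAM1, CDH5 and DCN had no count in any of the 6 libraries. The fibroblast markers summed to 12 to 17.1 CPM in control and 19.2 to 23.2 CPM under BLU9931, with COL1A1 at 4.28 to 11.6 CPM over the 6 libraries and COL3A1 at or under 0.0387 CPM. The part of this difference in the results was not tested.

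Of the 20612 genes, 29 rose and 8 fell under BLU9931 (edgeR's quasi-likelihood test, Benjamini-Hochberg adjusted p under 0.05), which is 0.18% of the genes tested (0.141% higher, 0.0388% lower). The rises included FGFBP1, an FGF carrier, the glutathione-degrading enzyme CHAC1, the neurotrophin receptor NGFR, the dual-specificity phosphatase DUSP15 and several genes of secreted or matrix proteins. The falls included the polyamine enzyme ODC1, the RNA polymerase III subunit POLR3F and the ribosome biogenesis factor UTP14A. Of the 37 genes, 20 rose and 4 fell at least 2-fold, and in all 37 the BLU9931 and control libraries did not overlap. Such a separation was common, since 31.6% of all tested genes had it. Most rises began at low levels: the median control level was 4.38 CPM for the genes that rose, 34.2 CPM for those that fell and 9.22 CPM over all tested genes. The median GC content of the transcripts was 54.1% for the rises, 51.0% for the falls and 49.1% for all tested genes, and after the GC adjustment 35 of the 37 genes passed the test, all but SPTBN4 and HAPLN3. With control 1 left out of the GC-adjusted fit, 33 of the 37 passed. EEF1A2 (adjusted p = 0.0545) and HNRNPM (0.0591) were then lost as well. In bulk RNA, a change in the share of cells that express a gene and a change in RNA per cell cannot be told apart.

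The upstream sequences of 5 of these genes are shown, from RefSeq on GRCh38.p14: whole 250-base windows for FGFBP1, the gene whose call held best, and for CHAC1, and short windows for 3 genes that fell and hold an E-box. Capitals mark a motif match, and the FGFBP1 window holds no match to any motif searched. Each is printed 5′ to 3′ on the gene's strand.
FGFBP1, chr4:15938741-15938990, minus strand: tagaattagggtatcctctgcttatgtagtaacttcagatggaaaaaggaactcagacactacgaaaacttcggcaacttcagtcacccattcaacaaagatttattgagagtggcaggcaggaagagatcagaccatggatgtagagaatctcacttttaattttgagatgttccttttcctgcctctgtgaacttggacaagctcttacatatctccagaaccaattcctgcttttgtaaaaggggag
CHAC1, chr15:40953221-40953470, plus strand: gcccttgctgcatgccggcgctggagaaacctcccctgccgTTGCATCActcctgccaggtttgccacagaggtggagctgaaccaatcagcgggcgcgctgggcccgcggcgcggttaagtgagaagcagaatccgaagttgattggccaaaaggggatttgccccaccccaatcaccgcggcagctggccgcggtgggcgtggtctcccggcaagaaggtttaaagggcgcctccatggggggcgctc
ODC1, chr2:10448016-10448061, minus strand: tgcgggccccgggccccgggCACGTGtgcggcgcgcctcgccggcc
HNRNPM, chr19:8444913-8444958, plus strand: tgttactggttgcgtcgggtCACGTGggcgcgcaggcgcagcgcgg
UTP14A, chrX:129905914-129905948, plus strand: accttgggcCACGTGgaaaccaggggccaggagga

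In CHAC1 the capitals mark the C/EBP-ATF element TGATGNAA, read on the reverse strand, which lies 209 bases before the RefSeq start. This element is the site through which ATF4 acts with C/EBP partners, and 3.89% of the 27305 gene symbols with a promoter entry hold it within 250 bases of a start. CHAC1 was the only 1 of the 16 matched promoters of rises to hold it. The element was in 0 of the 6 promoters of falls and in 0 of the 24 of ribosome biogenesis genes. Shares of all promoters are counted by symbol, and a symbol counts when any of its entries matches. For CHAC1, ODC1 and HNRNPM the RefSeq start lies inside the gene span listed with the counts, and so do the windows shown. In ODC1, HNRNPM and UTP14A the capitals mark the E-box CACGTG, the core site of MYC and related factors, at 29, 42 and 241 bases before the start. The E-box is in 7.73% of all promoters. It was in 3 of the 6 protein-coding genes that fell, in 0 of the 16 matched promoters of the 25 protein-coding genes that rose and in 3 of 24 promoters of ribosome biogenesis genes. The other motifs searched on both strands were CRE (TGACGTCA), which CLSTN2 holds, AP-1 (TGANTCA), which C1orf210 and SLC2A12 hold, ETS (CCGGAAGT) and E2F (TTTCGCGC). ETS and E2F are in none of the matched promoters of the genes that rose or fell, and ETS is in 5 of the 24 promoters of ribosome biogenesis genes. None of the 6 motifs contains another. CRE is in 2.03%, AP-1 in 8.06%, ETS in 4.13% and E2F in 0.542% of all promoters, and a match is a run of letters, not evidence of binding.

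FGFBP1 (ENSG00000137440, chromosome 4, 15935569 to 15938740) encodes a secreted carrier that releases FGFs from the matrix. It was at 8.12, 6.68 and 6.63 CPM in control and at 19.3, 20.2 and 19.5 CPM under BLU9931. The BLU9931 libraries lay close together and far above all controls, with control 1 the highest of the controls. The log2 change was 1.46 ± 0.12 (SE, adjusted p = 0.00195) and 1.56 ± 0.13 without control 1 (adjusted p = 0.00165). FGFBP1 alone of the 37 genes passed the test whichever of the 12 libraries was left out (largest adjusted p = 0.0248).

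PRELP (chromosome 1, 203475828 to 203491352), which encodes a leucine-rich matrix proteoglycan, was at 1.12, 1.21 and 1.7 CPM in control and 4.37, 4.45 and 4.06 CPM under BLU9931. Its log2 change was 1.67 ± 0.18 (SE, adjusted p = 0.0115, and 0.0233 without control 1). NGFR (chromosome 17, 49495293 to 49515017) was at 3.13, 5.36 and 4.64 CPM in control and 15.5, 15.3 and 13.8 CPM under BLU9931. Here control 1 was the lowest library, and the log2 change went from 1.76 ± 0.22 (adjusted p = 0.0169) to 1.57 ± 0.22 without it (0.0335). CFAP61, a gene of the ciliary axoneme, rose from 4.8, 4.22 and 5.13 CPM to 10.7, 9.88 and 10.1 CPM (log2 change 1.11 ± 0.12, adjusted p = 0.0115, and 0.0233 without control 1). CLSTN2, which encodes a calsyntenin of neuronal membranes, rose from 103.5, 104.9 and 99.8 CPM to 158.8, 175.9 and 155.7 CPM (0.67 ± 0.09, adjusted p = 0.0169, and 0.0416 without control 1). These 4 rises, with FGFBP1, DUSP15 and the fall of LINC01963, are the 7 of the 37 calls that passed the test without control 1 as well.

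DUSP15 (chromosome 20, 31847637 to 31870747) encodes a small dual-specificity phosphatase. It was close to the limit of detection in control, with 0, 4 and 8 counts (0, 0.138 and 0.227 CPM), and had 56, 77 and 50 counts under BLU9931 (2.38, 2.61 and 1.93 CPM). The groups did not overlap and the adjusted p was 0.0169 (0.00439 without control 1). The size of the change, 4.11 ± 0.49 on the log2 scale, is loosely set because the control counts are so few. SPTBN4 (a beta-spectrin), PCDH1, EEF1A2, CRYAB and HAPLN3 also rose from a control mean under 3 CPM. SPTBN4 (log2 change 2.12, and 1.67 after the GC adjustment, adjusted p = 0.0595) and HAPLN3 (1.08, and 0.76, adjusted p = 0.124) missed the threshold after that adjustment.

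CHAC1 (chromosome 15, 40952962 to 40956519), a stress gene whose enzyme breaks down glutathione, was at 3.42, 2.7 and 2.24 CPM in control and at 15.3, 13.3 and 11.2 CPM under BLU9931. It rose by a log2 change of 2.25 ± 0.33 (adjusted p = 0.0256), the largest among the called protein-coding genes of at least 5 CPM in a group. Without control 1 the change was 2.43 ± 0.37 and missed the threshold (adjusted p = 0.0566). SLC44A2, a choline transporter, was at 34.7, 42.0 and 42.9 CPM in control and 115.5, 112.4 and 104.9 CPM under BLU9931, the largest change among the called genes above 30 CPM in both groups (log2 change 1.48 ± 0.2, adjusted p = 0.0207, and 0.0607 without control 1). MDK, which encodes the secreted growth factor midkine, was at 75.2, 107.9 and 100.5 CPM in control and 195.3, 191.4 and 222.3 CPM under BLU9931. Its log2 change was 1.10 ± 0.19 (adjusted p = 0.0472, and 0.127 without control 1). After the GC adjustment the change of MDK was 0.66 ± 0.14 (adjusted p = 0.026).

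The other protein-coding rises of at least 5 CPM ranged from 0.55 to 1.11 on the log2 scale. CCL2, a chemokine, rose evenly, from 4.69, 4.95 and 4.98 CPM to 9.85, 10.3 and 11.5 CPM (log2 change 1.11 ± 0.15, adjusted p = 0.0198). BMF, which encodes a BH3-only trigger of apoptosis, rose by 1.04 ± 0.16 (0.0352). The sugar transporter SLC2A12 (0.96), the WNT-pathway modulator DKK3 (0.92), C1orf210 (0.89), the matrix metalloproteinase inhibitor TIMP3 (0.88) and CALCOCO1, an autophagy receptor (0.83), had adjusted p-values of 0.0232 to 0.0381. F13A1, the A chain of coagulation factor XIII, rose from 36.9, 34.4 and 34.5 CPM to 53.7, 52.2 and 54.0 CPM (0.60 ± 0.1, 0.0381). NRP2, a co-receptor for semaphorins and VEGF, rose from 123.4, 118.7 and 117.2 CPM to 165.0, 185.6 and 174.5 CPM (0.55 ± 0.08, 0.0352). Without control 1 these 9 genes had changes of 0.57 to 1.09 with adjusted p-values of 0.0607 to 0.123. Among the non-coding genes, LINC02177, the pseudogene AL590762.1 and the antisense genes RAB11B-AS1 and AC104958.2 rose, and since the use of strand in counting is not given in the sources used here, the 2 antisense genes cannot be told apart from genes on the other strand.

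Among the falls, POLR3F (chromosome 20, 18467127 to 18484643) was at 13.0, 10.4 and 8.04 CPM in control and 3.06, 4.31 and 2.86 CPM under BLU9931 (log2 change -1.61 ± 0.26, adjusted p = 0.0381, and 0.109 without control 1). PLCXD1, a phospholipase-like gene, was at 16.0, 14.9 and 17.0 CPM in control and 5.86, 6.92 and 8.19 CPM under BLU9931 (-1.19 ± 0.16, 0.0207, and 0.0543 without control 1). It lies in the pseudoautosomal region, whose copies on X and Y are near-identical, so its reads could be split and its level is uncertain. LINC01963, a long non-coding RNA, was at 16.9, 19.9 and 16.6 CPM in control and 7.51, 6.45 and 5.8 CPM under BLU9931 (-1.43 ± 0.18, adjusted p = 0.0169, and 0.0233 without control 1). SNORA77B, a small nucleolar RNA, had 15, 28 and 34 counts in control and 1 count in each BLU9931 library (-4.30 ± 0.73, adjusted p = 0.0478, and 0.0682 without control 1). With so few counts, the size of its change is loosely set.

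The other 4 falls were abundant genes with changes below 2-fold. ODC1, the first enzyme of polyamine synthesis, was at 362.7, 330.5 and 322.9 CPM in control and 242.0, 216.7 and 242.7 CPM under BLU9931 (log2 change -0.53 ± 0.09, adjusted p = 0.0413). HNRNPM, a splicing regulator, was at 308.6, 257.4 and 238.6 CPM in control and 163.5, 160.0 and 172.0 CPM under BLU9931 (-0.70 ± 0.12, 0.0472). UTP14A, needed to process ribosomal RNA, fell from 52.6, 49.5 and 49.6 CPM to 30.5, 29.1 and 33.8 CPM (-0.70 ± 0.1, 0.0256), and LRRC59, of the endoplasmic reticulum membrane, from 294.7, 300.0 and 291.9 CPM to 212.2, 196.1 and 212.4 CPM (-0.51 ± 0.08, 0.0256). Without control 1 their changes were -0.48 to -0.67 with adjusted p-values of 0.0607 to 0.118.

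**Figure D2:**
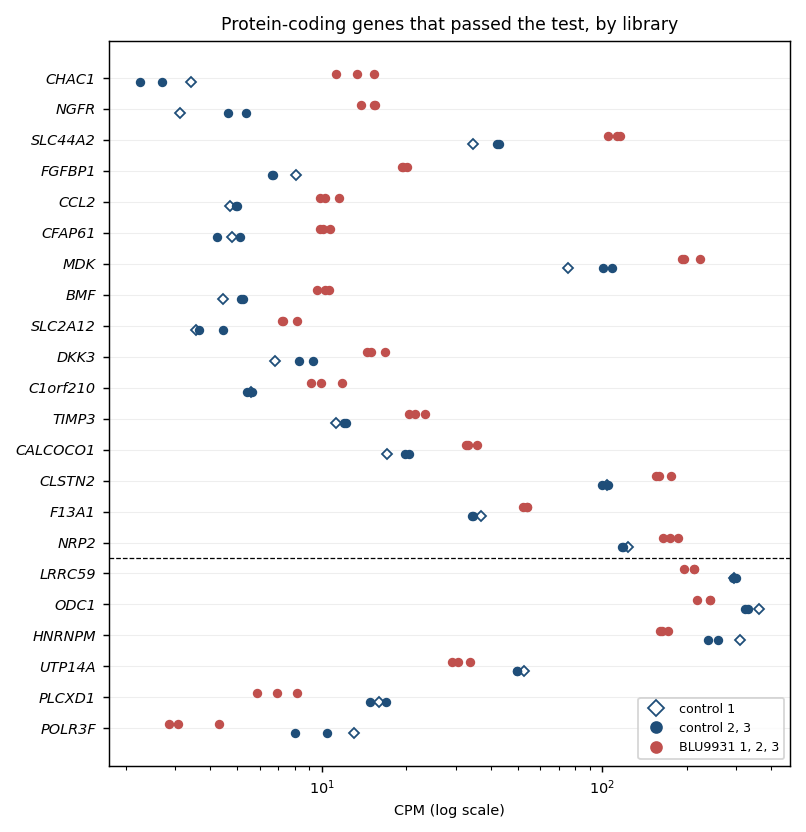
Level in each library (x axis, CPM on a log scale) of 22 protein-coding genes that passed the test and averaged 5 CPM or more in either group, 16 rises above the dashed line and 6 falls below it, each ordered by log2 change. Open diamonds are control 1, filled blue circles control 2 and 3, red circles the BLU9931 libraries; the groups do not overlap for any of them.

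The number of genes past the threshold moved strongly with single libraries. Leaving out control 1 gave 12 genes, 10 higher (0.0471% of 21235 tested) and 2 lower (0.00942%), 0.0565% in all. Leaving out control 1 and palbociclib 3, a library outside this comparison that enters the shared estimate of spread, gave 553 genes, 293 higher (1.39%) and 260 lower (1.23%), 2.62% in all, and these include all 37. A fit of control 2, control 3 and the BLU9931 libraries alone gave 597 genes, 328 higher (1.66%) and 269 lower (1.36%), 3.03% in all, of which 398 are among the 553, and 35 of the 37 are in it. A fit of all 6 libraries gave 6 genes, 3 of them among the 37. Every one of the 37 genes kept its direction in the 25 alternative fits that were run.

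The 5 genes that passed without control 1 but not with it were ATRIP, SCN8A, HLA-C, KCNS3 and GPX3. In 4 of them control 1 lay within or near the range of the BLU9931 libraries. KCNS3, a potassium channel subunit, was at 31.9 CPM in control 1, 7.47 and 8.64 CPM in control 2 and 3, and 41.3, 30.3 and 30.0 CPM under BLU9931. GPX3, an extracellular glutathione peroxidase, was at 9.6 CPM in control 1, 33.8 and 34.9 CPM in control 2 and 3, and 6.28, 8.15 and 10.9 CPM under BLU9931. ATRIP, the partner of the checkpoint kinase ATR, was at 10.5 CPM in control 1, 1.49 and 1.44 CPM in the other controls and 13.2, 10.1 and 8.93 CPM under BLU9931. SCN8A, a sodium channel, was at 31.3 CPM in control 1, 12 CPM in both others and 27.1 to 28.7 CPM under BLU9931. For these 4 genes the result therefore rests on control 2 and 3, and with all controls the groups overlap. HLA-C, which shares reads with near-identical class I genes and is uncertain, was at 99.1, 56.4 and 52.1 CPM in control and at 153.7, 159.9 and 156.1 CPM under BLU9931.

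With control 1 and palbociclib 3 both left out, the 10 largest rises and 10 largest falls were listed among protein-coding genes that passed there, averaged 5 CPM or more in a group and had no overlap of all 3 controls with the BLU9931 libraries. This last condition leaves out ATRIP, SCN8A, KCNS3 and GPX3. The list includes 13 genes outside the 37. The rises were SSPO (log2 change 1.89), HLA-C (1.53), the cation channel TRPM4 (1.25), CDC42EP1 (1.20) and HNRNPA1L2 (1.13, uncertain because of near-identical copies). The falls were the mitochondrial glutamate carrier SLC25A22, CPLX2, the WNT antagonist DKK2, SMOC1, BZW1, DCLK1, the branched-chain amino acid enzyme BCAT1 and the PI3K regulatory subunit PIK3R1. SLC25A22 was at 17.8, 37.6 and 39.4 CPM in control and 15.6, 12.8 and 14.7 CPM under BLU9931 (log2 change -1.42 ± 0.12, adjusted p = 0.000775). CPLX2, which regulates vesicle release, was at 142.7, 214.6 and 220.7 CPM in control and 107.9, 100.1 and 113.6 CPM under BLU9931 (-1.02 ± 0.09, 0.00126). With all libraries none of the 13 passed (adjusted p 0.0542 to 0.234).

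In CPM, the gene of the drug's own target was in no BLU9931 library lower than in the controls. FGFR4 (chromosome 5, 177086886 to 177098144) was at 25.3, 46.2 and 50.6 CPM in control and 52.6, 54.2 and 52.2 CPM under BLU9931. Control 1 set the distance between the groups: the log2 difference was 0.38 ± 0.33 (adjusted p = 0.563), 0.13 ± 0.32 without control 1 and 0.00 ± 0.1 after the GC adjustment. Per length, FGFR1 was the most abundant receptor, at 633.0 ± 127.6 TPM in control and 865.0 ± 30.6 TPM under BLU9931 (a level scaled by transcript length and library, ± SD, n = 3). Control 1 was the lowest library, at 485.7 TPM for FGFR1, 28.5 TPM for FGFR3 and 21.1 TPM for FGFR4. FGFR3 was at 41.4 ± 11.6 and 69.2 ± 4.97 TPM and FGFR4 at 36.6 ± 13.5 and 46.1 ± 3.89 TPM. For FGFR3 all BLU9931 libraries lay above all controls, but it did not pass edgeR's test (log2 difference 0.50 ± 0.26, adjusted p = 0.354). The difference was 0.28 without control 1 and 0.14 after the GC adjustment. FGFR4 overlapped between the groups in TPM, with 41.8 TPM in BLU9931 2 and 44.0 and 44.8 TPM in control 2 and 3. FGFR2 was near 1 TPM. The co-receptor KLB was at 0.22 ± 0.0177 TPM in control and 0.103 ± 0.0305 TPM under BLU9931, on 21 to 25 counts in control and 8 to 12 under BLU9931, and the related KL at 0.918 ± 0.171 and 0.671 ± 0.116 TPM. Of the 9 FGF receptor and adaptor genes tested, 0 passed edgeR's test, 3 had an unadjusted p under 0.05, as 16.2% of all tested genes had (FGFR1 higher, KL and KLB lower), and DESeq2 and limma also called 0. FGFR1 differed by 0.44 with all libraries and 0.25 without control 1, and passed in the fit without control 1 and palbociclib 3 (0.26, adjusted p = 0.036). FGFRL1, a receptor without a kinase domain, overlapped between the groups and was lower after the GC adjustment (-0.37 ± 0.09, adjusted p = 0.037). For the counts of list members that follow, the shares over all tested genes were 7.28% higher and 8.96% lower at an unadjusted p under 0.05. DESeq2 called 2.86% of all genes (1.44% higher, 1.43% lower), limma on TPM 0.107% (0.0825% and 0.0243%), limma on FPKM 0.257% (0.209% and 0.0485%), and edgeR after the GC adjustment 3.46% (1.86% and 1.6%).

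Among the ligands, FGF19 and FGF3 lie with CCND1 and FGF4 in a stretch of chromosome 11 (69641087 to 69819024), and the first 3 were abundant per length. FGF19, the ligand of FGFR4, was at 265.7 ± 31.0 TPM in control and 336.7 ± 13.6 TPM under BLU9931, and FGF3 at 149.7 ± 59.7 and 217.4 ± 8.05 TPM, with control 1 the lowest at 81.7 TPM. CCND1, the D-type cyclin, was at 131.1 ± 4.89 and 120.3 ± 4.92 TPM. In CPM, FGF19 was at 312.4, 377.0 and 384.7 in control and 428.5, 449.9 and 461.7 under BLU9931, without overlap but not past the test (log2 difference 0.32 ± 0.13, adjusted p = 0.276; 0.23 ± 0.13 without control 1 and 0.08 ± 0.07 after the GC adjustment). FGF2 went the other way, with 28.7, 19.5 and 17.0 CPM in control and 12.4, 13.7 and 14.3 CPM under BLU9931 (-0.69 ± 0.23, adjusted p = 0.216; -0.44 without control 1 and -0.40 after the GC adjustment). Of the 15 ligand and carrier genes tested, FGFBP1 alone passed.

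ERK feedback genes had no common direction, with 9 positive and 7 negative. The median log2 difference of the 16 inhibitors tested was 0.04 (0.01 without control 1, -0.04 after the GC adjustment), against 0.00 over all genes, and 0 of them passed edgeR's test, with 1 at an unadjusted p under 0.05, 1 called by DESeq2 and 0 by limma. That gene was PHLDA1, a pleckstrin homology protein induced by growth factors, at 66.2, 88.4 and 99.0 CPM in control and 318.6, 266.5 and 336.3 CPM under BLU9931 (log2 difference 1.86 ± 0.38, adjusted p = 0.0749, and 0.285 without control 1). After the GC adjustment PHLDA1 passed (2.03 ± 0.42, adjusted p = 0.0298), and so did DUSP7, an ERK phosphatase, in the other direction (-0.49 ± 0.1, adjusted p = 0.0183). DUSP6, the ERK phosphatase, was at 73.0, 83.3 and 55.6 CPM in control and 107.3, 88.0 and 79.3 CPM under BLU9931 (0.37 ± 0.19, adjusted p = 0.348). SPRY4 (0.03 ± 0.12) and SPRED2 (-0.10 ± 0.1) overlapped between the groups, as did ETV5 (-0.11 ± 0.1). The sign for SPRY4 turned to -0.07 without control 1.

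The 18 ERK-induced transcription factor and early response genes had a median of 0.23 (0.10 without control 1, 0.21 after the GC adjustment), and 0 passed edgeR's test, with 5 higher and 2 lower at an unadjusted p under 0.05, 1 called by DESeq2 and 1 by limma on FPKM. MAFF, a small MAF factor, came nearest, at 1.38, 1.56 and 1.56 CPM in control and 2.97, 3.12 and 3.13 CPM under BLU9931 (log2 difference 1.03 ± 0.18, adjusted p = 0.0508). After the GC adjustment MAFF (0.73, adjusted p = 0.0458) and JUND (0.41, adjusted p = 0.024) passed. ETV4 was at 12.3, 21.4 and 21.4 CPM in control and 26.2, 25.7 and 28.5 CPM under BLU9931 (0.54 ± 0.23, adjusted p = 0.291; 0.32 without control 1 and 0.27 after the GC adjustment). CCND1 had a small difference of -0.17 ± 0.08 (adjusted p = 0.304; -0.33 after the GC adjustment). MYC could not be read: it ran from 2.83 to 35.2 CPM within control and from 4.21 to 43.6 CPM within BLU9931, and its sign turned with the libraries used. MKI67, a marker of cycling cells, was at 1078.9, 964.4 and 1081.7 CPM in control and 1161.1, 1203.4 and 1084.5 CPM under BLU9931 (0.14 ± 0.18, adjusted p = 0.702).

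**Figure D3:**
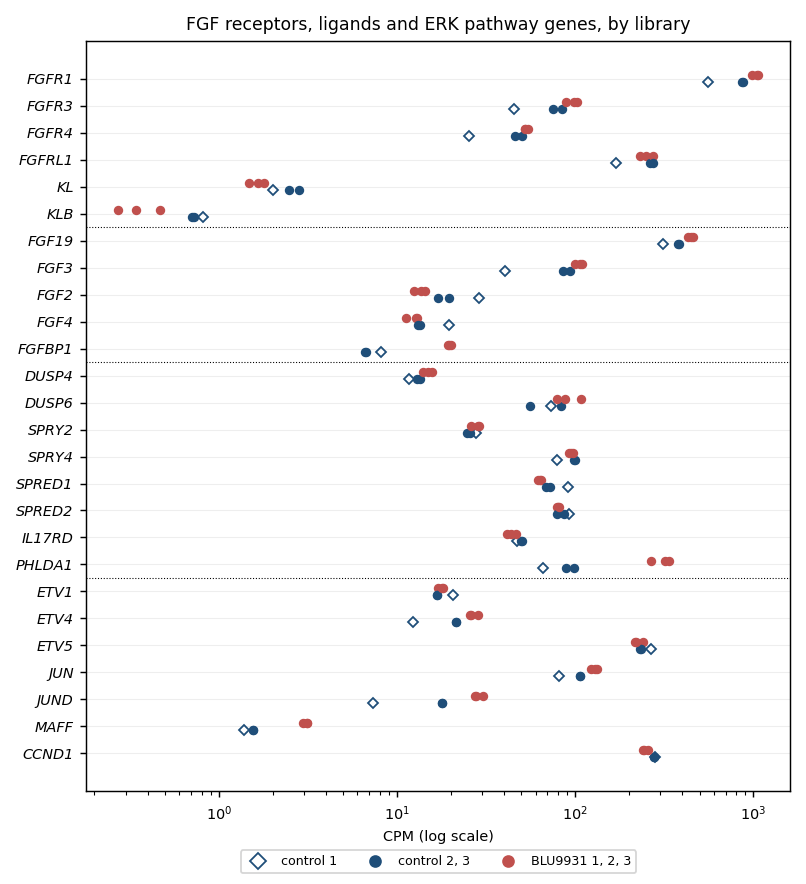
Level in each library (x axis, CPM on a log scale) of FGF receptors and klothos, FGF ligands and the carrier FGFBP1, ERK feedback genes, and ERK-induced genes with CCND1, set apart by dotted lines. Open diamonds are control 1, which lies furthest from the BLU9931 libraries for FGFR1, FGFR3, FGFR4, FGF3, ETV4 and JUND; FGFBP1 and PHLDA1 are well apart from all 3 controls.

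Genes of ribosome biogenesis were lower together. The 30 listed genes, which make and process ribosomal RNA, had a median log2 difference of -0.29 (-0.28 without control 1 and -0.28 after the GC adjustment), and 26 of them were negative, against 10260 of 20612 over all genes. The BLU9931 libraries lay below all controls for 17 of the 30 (16.3% of all genes), and for 22 of 30 without control 1 (21.3% of all genes), and above all controls for 0 (15.3% of all genes, and 20.1% without control 1). None passed edgeR's test over all genes, 16 had an unadjusted p under 0.05, DESeq2 called 10 lower and limma 0, 9 fell in the fit without control 1 and palbociclib 3 (1.23% of all genes), and 13 fell after the GC adjustment. NCL, the nucleolar protein nucleolin, was at 1021.1, 854.8 and 833.6 CPM in control and 603.0, 562.3 and 621.5 CPM under BLU9931 (-0.60 ± 0.1, adjusted p = 0.0508). UTP20 was at 164.9, 132.2 and 135.5 CPM in control and 105.4, 96.8 and 98.2 CPM under BLU9931 (-0.53 ± 0.11, adjusted p = 0.0747; -0.29 after the GC adjustment), and WDR43 differed by -0.49 ± 0.12 (0.137; -0.27 after it). Both are parts of the small-subunit processome, as is UTP14A, which fell as given above. The summed level of the list was 5314.8 to 6298.0 CPM in control and 4057.3 to 4319.0 CPM under BLU9931. A pattern of this kind in ribosome biogenesis genes was known from earlier results on these data, so it is no independent evidence.

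Of the 22 RNA polymerase III genes tested, 13 were negative and 9 positive. The BLU9931 libraries lay below all controls for 9 (16.3% of all genes) and above them for 0 (15.3%). Without control 1 they lay below for 11 (21.3%) and above for 3 (20.1%). The median over 22 genes was -0.07 (-0.06 without control 1), with POLR3F past the test, 7 lower and 0 higher at an unadjusted p under 0.05, 5 called lower by DESeq2, 0 by limma, 4 falls in the fit without control 1 and palbociclib 3 and 4 after the GC adjustment. GTF3C6, a subunit of the initiation factor TFIIIC, was at 22.9, 18.8 and 21.4 CPM in control and 12.4, 11.3 and 14.1 CPM under BLU9931 (-0.74 ± 0.13, adjusted p = 0.0508). POLR3C was at 42.6, 42.2 and 42.2 CPM in control and 33.2, 30.7 and 29.6 CPM under BLU9931 (-0.44 ± 0.1, adjusted p = 0.0955).

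Genes of the unfolded protein response were lower by a median of -0.22 over 17 genes (-0.21 without control 1, -0.18 after the GC adjustment), 15 of them negative. The BLU9931 libraries lay below all controls for 7 of the 17 (16.3% of all genes) and above them for 0 (15.3%). None passed edgeR's test, with 7 lower at an unadjusted p under 0.05, 1 called lower by DESeq2, 0 by limma and 3 lower after the GC adjustment. HSPA5, the main chaperone of the endoplasmic reticulum, was at 907.1, 868.7 and 798.2 CPM in control and 618.7, 684.2 and 666.5 CPM under BLU9931 (-0.39 ± 0.09, adjusted p = 0.127; -0.26 after the GC adjustment). The 27 ATF4 targets and amino acid stress genes, to which CHAC1 belongs, had a median of -0.01 (0.04 without control 1), and CHAC1 alone passed. SESN2, a stress-induced regulator of mTORC1, was at 7.45, 11.3 and 10.8 CPM in control and 20.7, 18.8 and 14 CPM under BLU9931 (0.85 ± 0.27, adjusted p = 0.199), while SLC7A11, the cystine transporter, differed by -0.53 ± 0.17 (0.211; -0.22 after the GC adjustment). The 20 aminoacyl-tRNA synthetases had a median of -0.24 with all libraries and -0.16 without control 1, none past edgeR's test, 9 lower and 1 higher at an unadjusted p under 0.05, and 0 called by DESeq2 or limma. The BLU9931 libraries lay below all controls for 11 of these 20 (16.3% of all genes) and above them for 2 (15.3%).

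FOXO and PI3K feedback targets, genes that rise when PI3K signalling drops, had a median of 0.27 over 20 genes (0.24 without control 1, 0.26 after the GC adjustment). None passed edgeR's test, with 6 higher and 2 lower at an unadjusted p under 0.05, 2 called higher and 1 lower by DESeq2, 0 by limma, and 5 higher and 1 lower after the GC adjustment. BCL6, a transcriptional repressor, was at 32.1, 31.6 and 33.2 CPM in control and 46.4, 46.6 and 43.8 CPM under BLU9931 (0.50 ± 0.12, adjusted p = 0.119). IGFBP5 differed by 0.42 ± 0.1 (0.11) and the pseudokinase gene TRIB2 by -0.58 ± 0.13 (0.0949). Cholesterol synthesis genes had a median of 0.15 over 24 genes in each of the 3 fits, with 6 higher and 0 lower at an unadjusted p under 0.05, none past edgeR's test, 2 called by DESeq2, and 1 by limma on FPKM. INSIG1, a sterol-regulated gene, was at 53.7, 49.8 and 47.4 CPM in control and 72.8, 71.9 and 125.7 CPM under BLU9931 (0.84 ± 0.19, adjusted p = 0.101).

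Cell cycle genes showed small differences. Over 45 DNA replication and S phase genes the median was -0.15 (-0.10 without control 1), with 10 lower and 1 higher at an unadjusted p under 0.05, none past edgeR's test, 1 called lower by DESeq2 and 0 by limma. The BLU9931 libraries lay below all controls for 18 of the 45 (16.3% of all genes) and above them for 6 (15.3%). Over 34 genes of G2 phase and mitosis it was -0.02, and 0.07 without control 1, with 4 higher and 1 lower at an unadjusted p under 0.05 and 0 called by edgeR, DESeq2 or limma. PLK1, a mitotic kinase, was at 145.5, 159.5 and 160.7 CPM in control and 193.7, 209.1 and 208.2 CPM under BLU9931 (0.39 ± 0.13, adjusted p = 0.224; 0.19 after the GC adjustment). The 20 p53 targets had a median of -0.06 (-0.07 without control 1), with none past edgeR's test, 4 higher and 1 lower at an unadjusted p under 0.05, 3 called higher by DESeq2 and 0 by limma. BTG2, an antiproliferative gene, was at 21.3, 25.9 and 25 CPM in control and 34.0, 35.4 and 34.0 CPM under BLU9931 (0.52 ± 0.1, adjusted p = 0.0616). Neuroendocrine genes had a median of 0.14 over 14 genes (0.20 without control 1), with none past edgeR's test, 3 higher and 0 lower at an unadjusted p under 0.05, 2 called higher by DESeq2 and 0 by limma. After the GC adjustment 1 was called higher and 1 lower. The BLU9931 libraries lay above all controls for 2 of the 14 (15.3% of all genes) and below them for 3 (16.3%), so the list had no common direction. CHGB, a granin of secretory granules, was at 405.9, 387.7 and 369.4 CPM in control and 460.2, 499.9 and 499.3 CPM under BLU9931 (0.33 ± 0.08, adjusted p = 0.137), and INSM1 differed by 0.56 ± 0.14 (0.137), but by 0.11 after the GC adjustment.

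**Figure D4:**
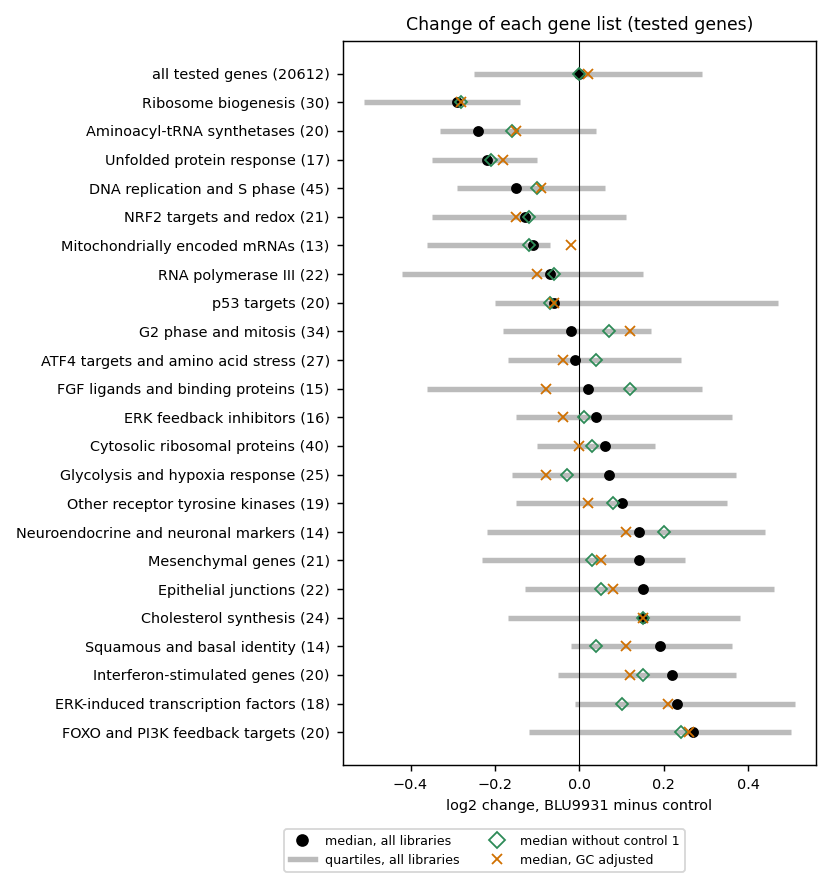
Log2 change (x axis, BLU9931 minus control) of gene lists with at least 10 tested members, whose number is in parentheses. Black circles are medians and grey bars quartiles with all libraries, green diamonds medians without control 1, orange crosses medians after the GC adjustment; ribosome biogenesis is lowest with all libraries (-0.29), and FOXO and PI3K feedback targets highest (0.27).

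The same genes were read in the libraries with palbociclib, where the combination minus palbociclib gives the effect of BLU9931 when CDK4 and CDK6 are inhibited. These libraries are in neither group compared above, but they enter the shared estimate of spread by which the 37 genes were called. Genes that vary little in them were thus favoured, so the counts below are no independent repeat. In that comparison 3.82% of all genes were called, 0.917% higher and 2.91% lower. Of the 29 rises, 23 were again higher and 14 of these passed the test, while 6 were lower, 3 of them past the test. Of the 8 falls, 5 were lower with 0 past the test (edgeR), and 3 were higher, with ODC1 past it. Across all tested genes the effects with and without palbociclib were weakly related (Spearman rho 0.144, and -0.0583 without control 1 and palbociclib 3; genes are not independent replicates).

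FGFBP1 rose by a similar amount, with 6.24, 6.73 and 6.55 CPM under palbociclib and 16.3, 16.3 and 14.9 CPM under the combination (log2 change 1.28 ± 0.13, adjusted p = 0.000126). DUSP15 was at 0.168, 0.236 and 0.0808 CPM under palbociclib and 5.76, 4.91 and 6.09 CPM under the combination (adjusted p = 0.000115). PRELP was at 3.59, 4.56 and 4.12 CPM and then 13.3, 11.8 and 14.1 CPM (1.67 ± 0.17, 0.000197). SLC44A2 was at 34.0, 38.4 and 20 CPM under palbociclib and 90.2, 81.3 and 89.1 CPM under the combination (1.49 ± 0.2, 0.00126). NGFR, PCDH1, CRYAB, CFAP61, MDK, BMF, SLC2A12, TIMP3 and CALCOCO1 also rose in both settings, although SLC2A12 (0.0491), BMF (0.0422) and CALCOCO1 (0.04) passed narrowly. Without palbociclib 3, 12 of the genes changed the same way and 4 the opposite way past the test.

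For 11 of the 37 genes the effect of BLU9931 differed with palbociclib by a test of the difference itself (interaction, adjusted p under 0.05). Over all genes 1.59% passed it, 0.281% higher and 1.31% lower. The 37 genes were chosen on BLU9931 minus control, which is 1 term of the interaction, so this count and its signs are biased by the choice and are given as a description. F13A1 was at 121.5, 123.6 and 141.7 CPM under palbociclib and 47.8, 46.4 and 45.2 CPM under the combination, so that BLU9931 went with a rise without palbociclib and a fall with it (log2 change -1.47 ± 0.1, interaction adjusted p = 2.98e-05). LINC02177 and AC104958.2 showed the same turn (interaction adjusted p = 0.00127 and 0.000513). ODC1 was at 129.7, 138.8 and 143.7 CPM under palbociclib and 171.5, 185.5 and 172.3 CPM under the combination (0.36 ± 0.09, interaction adjusted p = 0.00382). POLR3F was at 6.44, 7.12 and 10.8 CPM under palbociclib and 10.4, 8.32 and 7.66 CPM under the combination, which overlap (interaction adjusted p = 0.0371). CHAC1 differed little under palbociclib, with 5.43, 4.52 and 2.59 CPM against 6.3, 6.93 and 3.27 CPM, and its interaction did not pass (adjusted p = 0.0719). The call for POLR3F was lost without control 1 (0.0666), and so was that for AL590762.1 (0.0534).

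**Figure D5:**
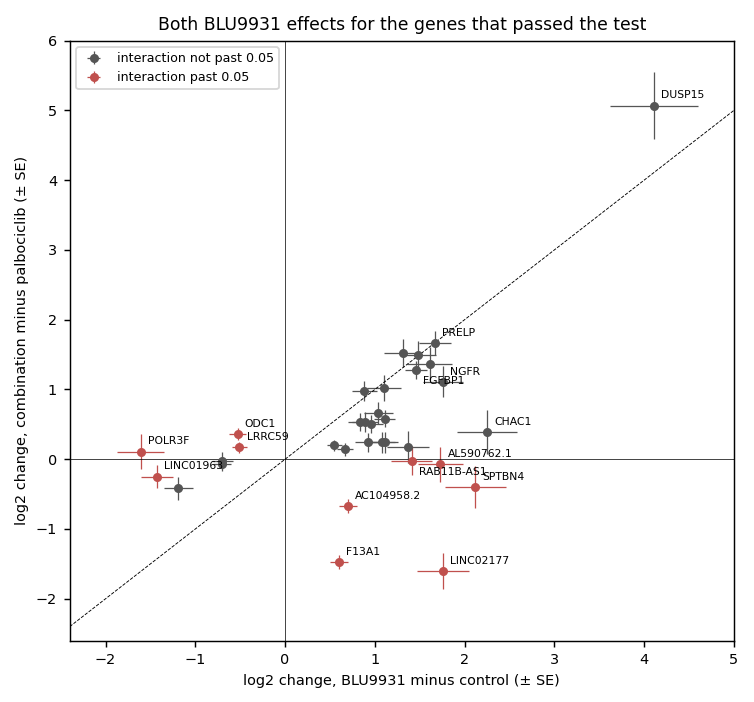
Log2 change with BLU9931 alone (x axis, BLU9931 minus control) against its log2 change with palbociclib (y axis, combination minus palbociclib) for 34 of the 37 genes, SNORA77B among those left out, for its low counts; bars are SE. The dashed line marks equal effects. Red points are 10 genes whose interaction passed; FGFBP1 and PRELP lie near the line and F13A1 and LINC02177 below 0 on the y axis.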

How the data were processed

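Poly(A) RNA of H520 cells was measured in 12 libraries. Counts per gene and library were deposited as 1 table, with TPM and FPKM of the same genes beside them; these units are taken from the file headers, and how the values were made is not given there. StringTie 1.3.3b, HISAT2 2.0, Trimmomatic 0.36 and bedtools 2.26.0 are listed, with no role, in the submitters' processing notes, as is a mouse genome build, mm9. The table lists human gene IDs, 57836 of 58174 of them in GENCODE 29 and 56044 with the same start and end there, so positions are given on GRCh38. The annotation and the use of strand in counting are not given in the sources used here.

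Differences were tested on the counts by edgeR 4.0.16 under R 4.3.3 (filterByExpr, TMM scaling, glmQLFit and glmQLFTest on all 12 libraries with a term per group, 8 residual degrees of freedom, common dispersion 0.0518), with a Benjamini-Hochberg adjusted p under 0.05 over 20612 genes. The interaction tests whether the log2 effect of BLU9931 differs with palbociclib. All tests are two-sided, errors of log2 changes are SE of the fit, and replicates differed by more than counting error (chi-square per degree of freedom 16.7 to 63.9 in these groups). Alternatives were DESeq2 1.42.0, limma 3.58.1 on log2 of TPM or FPKM with a pseudocount of 1 (a scale that understates changes of low genes), library totals, no filter, a loess adjustment for GC content (span 0.3, GC known for 99.6% of tested genes), the compared groups alone, a replicate block, and libraries left out. Tables were made with scipy 1.17.1, numpy 2.4.6 and pandas 2.3.3 under Python 3.11.15, and plots with matplotlib 3.10.9. Promoter sequences are from RefSeq, matched by symbol.

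The comparison and the gene lists were chosen with earlier results of these data known. Named genes are a panel around FGFR4, the protein-coding genes past the threshold, those past it without control 1, the 10 largest rises and falls of at least 5 CPM without control 1 and palbociclib 3 among those with no overlap of the 3 against 3 libraries, and up to 3 members per list with the smallest p and no overlap, clone names passed over; some small lists and some list members are left out of the text, and 2 genes past the threshold are counted but not reported here.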

Additional observations from a re-analysis of the deposited data

Results flagged for a closer look

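For 11 of the 37 genes that passed the test, the effect of BLU9931 with palbociclib differed from its effect without it by edgeR's interaction test (adjusted p under 0.05), and 10 of them are given here. The genes were chosen on the effect without palbociclib, which is 1 term of this difference and biases its size and sign. The difference, on the log2 scale as the effect with palbociclib minus the effect without it, was -2.51 for SPTBN4, -3.36 for LINC02177, -1.8 for AL590762.1, -1.43 for RAB11B-AS1, -1.37 for AC104958.2 and -2.07 for F13A1, genes that rose with BLU9931 alone. For the genes that fell with BLU9931 alone, it was 0.68 for LRRC59, 0.90 for ODC1, 1.19 for LINC01963 and 1.73 for POLR3F. LRRC59 was at 132.4, 137.8 and 141.2 CPM under palbociclib and 155.6, 155.1 and 151.4 CPM under the combination, below its level in both groups without palbociclib.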

How the results depend on the processing

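Against 37 genes for BLU9931 alone, 590 passed with DESeq2 (296 higher, 294 lower), 714 with the GC adjustment (384 and 330), 22 with limma on TPM, 17 without the filter and 6 with the compared groups alone (5 and 1). With control 1 left out as well, an addition chosen after seeing the data, it was 227 with DESeq2 (142 and 85), 419 with the GC adjustment (250 and 169) and 597 with the compared groups alone (328 and 269). Without control 1 and palbociclib 3 it was 553. Leaving out 1 library gave 1 (without BLU9931 1) to 396 (without palbociclib 3; 208 higher and 188 lower). For the combination against palbociclib (788 genes, 189 higher and 599 lower) the counts in the same order were 1316, 2325 and 297 (with DESeq2, the GC adjustment and the groups alone), 1503 and 2417 (DESeq2 and GC adjustment without control 1), 2043 (817 and 1226) without control 1 and palbociclib 3, and 438 to 945 without 1 library. For the interaction (328 genes) they were 838 and 1754 (DESeq2 and GC adjustment; 538 of the latter higher), 798 and 1574 without control 1, 2117 (981 and 1136) without control 1 and palbociclib 3, and 148 to 986 (386 and 600) without 1 library. The cause of these shifts was not tested.

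The replicate numbers did not pair the samples: deviations of same-numbered control and BLU9931 libraries had correlations of -0.00334, 0.0505 and -0.0471. With a replicate block, 2 genes passed for BLU9931 alone, 483 for the combination against palbociclib and 142 for the interaction; with a block and the GC adjustment, 445 (261 and 184), 1930 and 1377.

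Among the panel genes the direction turned for FGFR4, SPRY4 and MYC, and among the list medians given in the report the sign turned for G2 phase and mitosis (-0.02 to 0.07, and 0.12 after the GC adjustment) and ATF4 targets (-0.01 to 0.04) without control 1 and for ERK feedback inhibitors (0.04 to -0.04) after the GC adjustment. FGFR4 was at -0.04 with the GC adjustment without control 1. SPRY4 was at -0.03 with the GC adjustment and -0.09 with it without control 1, at -0.07 in DESeq2, the groups alone and the edgeR fit without control 1 and palbociclib 3, each without control 1, and between -0.07 and 0.11 without 1 library. MYC was at -0.06 with the GC adjustment and -0.55 with it without control 1, at -0.49 in DESeq2, the groups alone and the edgeR fit without control 1 and palbociclib 3, each without control 1, and between -0.73 and 0.54 without 1 library. Genes under about 1 CPM rest on few counts per library, so their fold changes are loosely set.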

Other observations

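GCLC and GCLM, genes of glutathione synthesis in the NRF2 list, were lower in every BLU9931 library than in every control, though neither passed edgeR's test over all genes with all libraries and no adjustment. GCLC, the catalytic subunit of the first enzyme of glutathione synthesis, was at 304.6, 241.0 and 234.8 CPM in control and 150.6, 180.9 and 181.6 CPM under BLU9931 (log2 difference -0.60 ± 0.19, SE, adjusted p = 0.204; -0.48 without control 1 and -0.41 after the GC adjustment). GCLM, the subunit that modifies it, was at 65.3, 49.5 and 46.6 CPM in control and 36.6, 26.1 and 34.3 CPM under BLU9931 (-0.74 ± 0.21, adjusted p = 0.179; -0.57 without control 1 and -0.47 after the GC adjustment, where it passed, adjusted p = 0.0387). Over the 21 genes of the list the median was -0.13 (-0.12 without control 1), with 5 lower and 0 higher at an unadjusted p under 0.05, 1 called lower by DESeq2 and 0 by limma.

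Single members of other lists had these values, none of them past the test with all libraries and no adjustment; HK2, DSP and ELF3 passed after the GC adjustment (adjusted p = 0.00274, 0.0117 and 0.0117). HK2, a hexokinase that starts glycolysis, was at 139.5, 134.2 and 136.2 CPM in control and 103.6, 93.1 and 99.8 CPM under BLU9931 (-0.47 ± 0.09, adjusted p = 0.0612; -0.45 without control 1 and -0.46 after the GC adjustment). The mitochondrially encoded MT-CO3 was at 12227.4, 13234.1 and 12359.0 CPM in control and 8842.8, 10496.6 and 9280.8 CPM under BLU9931 (-0.40 ± 0.08, adjusted p = 0.0703). DSP, the desmosome protein desmoplakin, was at 596.0, 555.2 and 571.5 CPM in control and 468.6, 460.4 and 435.2 CPM under BLU9931 (-0.34 ± 0.07, adjusted p = 0.0699; -0.31 without control 1). ELF3, an epithelial ETS factor, was at 15.9, 19.4 and 21.7 CPM in control and 29.1, 27.9 and 28.8 CPM under BLU9931 (0.59 ± 0.15, adjusted p = 0.148).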
